A study of Mus musculus with 8 samples.

Results

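The proteasome is the protein complex that degrades ubiquitin-tagged proteins, and its subunit genes were read here in the tibialis anterior, a fast muscle of the lower hind limb, from mice with and without Carm1 in muscle fibres. Members were taken by name, as every listed gene called Psma, Psmb, Psmc or Psmd followed by digits alone, together with Psme1, Psme2, Psme3, Psme4 and Psmf1. This gave 44 of the 24341 genes listed. All 8 animals were 12 weeks old, on a chow diet, described as male, and carried floxed Carm1, which encodes an arginine methyltransferase. The 4 knockouts (Carm1 skm-/-, HSAcre Tg/0) also carried 1 copy of Cre, driven by the promoter of human skeletal actin and so active in muscle fibres, and the 4 controls (Carm1 skm+/+, HSAcre 0/0) did not. Cells other than fibres therefore keep Carm1 in both groups, and presence of Cre cannot be told apart from loss of Carm1. The comparison asks how muscle transcripts differ between these genotypes.

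The 20S core is a barrel of stacked alpha and beta rings, and proteolysis is carried out by beta subunits inside it. A 19S regulatory particle caps the barrel, where ATPase subunits unfold substrates and non-ATPase subunits bind ubiquitin and remove it. In muscle this system is known for its part in the turnover of contractile proteins and in atrophy. Interferon induces alternative catalytic subunits, which replace the constitutive ones to form the immunoproteasome.

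Stretches of promoter are shown for the 5 members that hold a core of the antioxidant response element, the kind of site through which the factor Nfe2l1 is known to drive subunit genes together. RefSeq promoters (GRCm38.p6, the assembly of mm10) were matched by symbol for 37 of the 44 members, and Psma8, Psmb1, Psmb2, Psmb7, Psmc3, Psmd3 and Psmd7 had no entry. In the 250 bases before each annotated start, TGACNNNGC was searched on both strands. The stretches lie at chr14:54618022-54618054 on the minus strand for Psmb5, and on the plus strand at chr11:70525336-70525356 for Psmb6, chr14:45329585-45329617 for Psmc6, chr11:107479278-107479301 for Psmd12 and chr5:123228147-123228179 for Psmd9. Each is written on the gene's strand, and capitals mark the match.
Psmb5: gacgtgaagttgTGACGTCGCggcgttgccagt
Psmb6: gactaaagagagTGACGGAGC
Psmc6: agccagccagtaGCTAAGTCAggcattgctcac
Psmd12: tctGCTGTGTCAcatttgcccccc
Psmd9: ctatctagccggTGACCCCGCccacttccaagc
The core was held by 13.5% of the members with a promoter and by 11.5% of all 27025 genes in the table. The CCAAT box, searched as CCAAT on both strands, was held by 14 members (37.8%, against 37.5% of all genes). The gamma-activated site TTCNNNGAA, which interferon-gamma signalling uses, was found in 1 member, the inducible subunit Psmb8 (2.70%, against 8.13%), and the core of the interferon-stimulated element (GAAA, any 2 bases, GAAA) in 3, Psmb3, Psmd4 and Psmd9 (8.11%, against 3.46%). The Psmb8 match lies at chr17:34198086-34198118 on the plus strand.
Psmb8: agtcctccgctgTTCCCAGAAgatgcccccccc
A match is a description of letters, not a bound site. The 4 searches can overlap, and the other catalytic genes of the inducible set, Psmb9 and Psmb10, held no match other than a CCAAT box in Psmb9.

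Levels are FPKM, that is fragments mapped to a gene corrected for its length and for the size of the library, and read depth is not known. Libraries summed to 604428 to 681042 FPKM and had 10775 to 11221 genes at 1 FPKM or more. FPKM were divided by factors of 0.906 to 1.07 to give the scaled FPKM used below. Carm1, the targeted gene, stood at 27.0, 37.3, 27.3 and 30.0 scaled FPKM in controls 1 to 4 and at 17.96, 12.6, 17.1 and 13.8 in knockouts 1 to 4, with no overlap (2-sided exact permutation p = 0.0286, the smallest that 70 assignments allow). In limma its log2 difference was -0.94 (adjusted p = 0.0466), with an adjusted p of 0.0654 to 0.148 when any 1 library was left out. Xist, the RNA of the inactive X chromosome of females, reached 19.6 FPKM in control 1, 22.9 in knockout 2 and 20.5 in knockout 4 and was at most 0.0662 FPKM in the other 5, which goes against the label for those 3 libraries. Knockouts 2 and 4 also had no gene of low-data status, against 5 to 10 in the other 6. Fast-fibre markers summed to between 60459 and 119200 scaled FPKM in controls and between 63784 and 105940 in knockouts, although 4 of the 8, such as Acta1 and Ckm, had a failed status in some libraries and were not tested. The median of these sums was 83013 in controls and 97557 in knockouts. The 4 tested markers of this list went the other way, all with differences below 0 (median -0.38). Of these, Mylpf did not overlap between groups (adjusted p = 0.203 in limma), as was so for 8.31% of all genes tested. The direction of fast-fibre transcripts as a whole is therefore not settled here. In whole muscle, fewer cells of a type and less RNA per cell cannot be told apart.

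No proteasome gene passed the test between genotypes. Most stood slightly lower in the knockout: 37 of 42 tested members had a log2 difference (knockout minus control) below 0, with a median of -0.14, where 50.5% of all genes tested lay below 0 and their median was -0.0021. The differences lay between -0.54 for Psme1 and 0.06 for Psme3, both genes of activators that open the core. Summed over the members, control libraries held 4769.7 ± 556 scaled FPKM and knockout libraries 4278.3 ± 262 (mean ± SD over 4 animals), or 89.7% of the control mean. The libraries overlapped: controls 1 to 4 summed to 4314.2, 4811.2, 5538.5 and 4414.9, and knockouts 1 to 4 to 4476.3, 3936.9, 4491.9 and 4208.1. Control 3 was the highest of all and knockout 2 the lowest.

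Genes were tested with limma on log2(scaled FPKM + 1) over the 11089 genes that reached 1 scaled FPKM in 4 or more libraries, at a Benjamini-Hochberg adjusted p under 0.05. On this scale the added 1 makes the differences of low genes too small. Over all genes 0.361% passed, 22 higher and 18 lower. Of the members 0 of 42 passed, and 4 had an unadjusted p under 0.05 (Psme1, Psme4, Psmd9 and Psmb2), a share of 9.52% against 13.1% of all genes. The groups did not overlap for 3 members, Psme1, Psme4 and Psmd12, against 8.31% of all genes in either direction and 3.64% in the lower direction. The smallest adjusted p of a member was 0.173 (Psme1). Without control 3 the median of the members was -0.06, with 33 of 42 below 0 (median of all genes -0.0038). Without knockouts 2 and 4 it was -0.07, with 29 of 42 below 0 (median of all genes -0.011). No member passed in either fit.

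**Figure D1:**
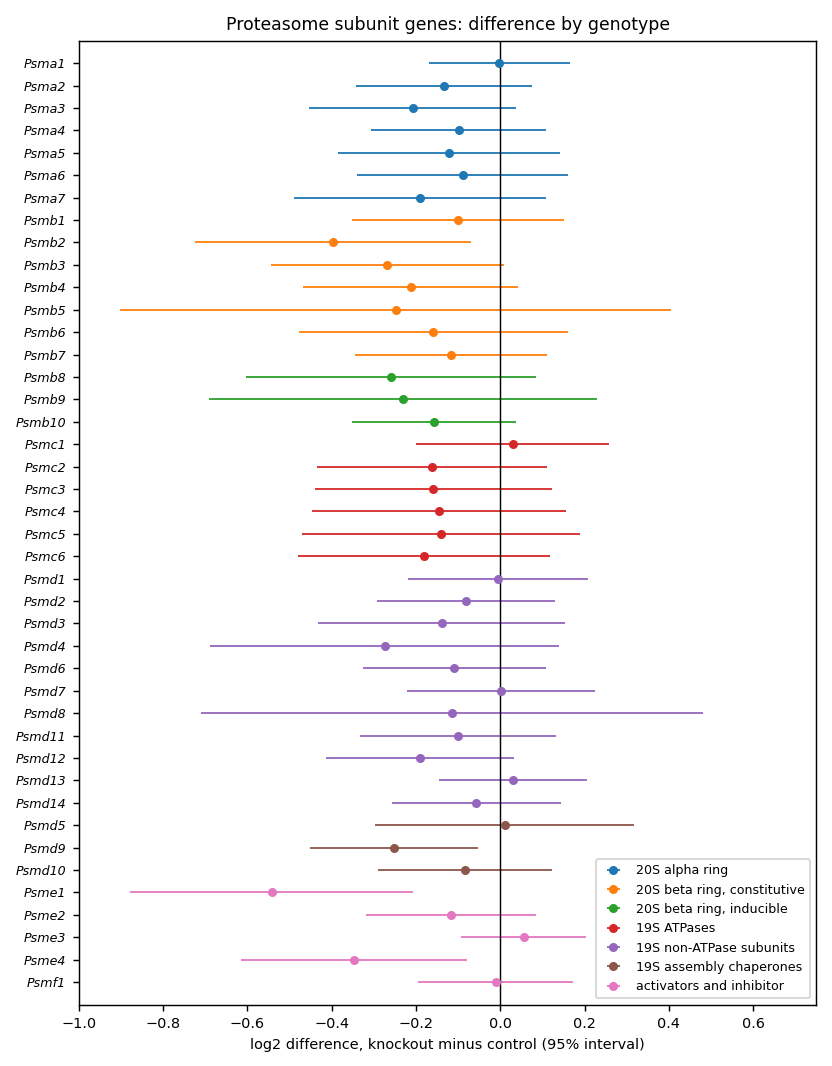
Log2 difference in scaled FPKM + 1, knockout minus control, for the 42 tested proteasome genes (points) with 95% intervals from limma (bars), n = 4 animals per genotype, coloured by role. Most points lie left of 0, from -0.54 for Psme1 to 0.06 for Psme3, and the intervals of all but Psme1, Psme4, Psmb2 and Psmd9 include 0.

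Transcript levels differed more between roles than between genotypes. The mean over 8 libraries ran from 6.43 scaled FPKM for Psmf1, a proteasome inhibitor, to 417.59 for Psmb7, which carries the trypsin-like activity, and the median member lay at the 93.8th percentile of tested genes by level. Constitutive beta genes lay between 100.8 (Psmb5) and 417.6 (Psmb7), alpha genes between 55.5 (Psma5) and 211 (Psma6), ATPase genes between 83.6 (Psmc4) and 186 (Psmc3) and non-ATPase genes between 44.0 (Psmd11) and 162 (Psmd6). The inducible beta genes, from 7.97 (Psmb9) to 17.8 (Psmb10), and the assembly chaperones Psmd10, Psmd9 and Psmd5, from 8.61 to 11.7, lay below every other core or 19S gene tested. Psma8 and Psmb11, known from testis and thymus, were at most 0.0909 and 0.0138 scaled FPKM and did not pass the filter on low values.

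**Figure D2:**
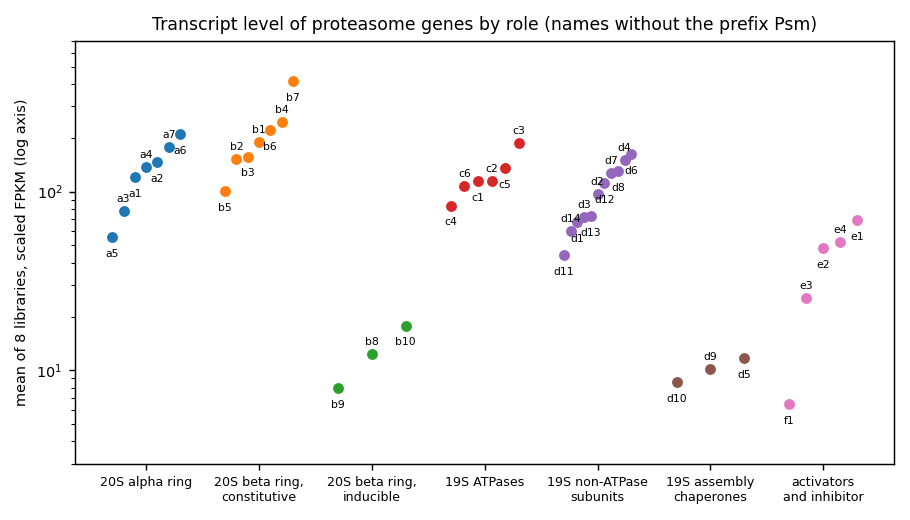
Mean transcript level over the 8 libraries in scaled FPKM (log axis) for each of the 42 tested proteasome genes, grouped by role. Constitutive 20S and 19S genes lie between 44.0 and 417.6, and the inducible beta genes and assembly chaperones between 7.97 and 17.8.

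All 7 tested alpha genes, which form the outer rings and their gate, had differences below 0, with a median of -0.12. Without control 3 the median was -0.030, and Psma1 stood at 0.011. Psma3 stood at 84.0, 78.0, 88.8 and 81.8 scaled FPKM in controls 1 to 4 and at 61.1, 74.6, 68.1 and 85.5 in knockouts 1 to 4. Knockout 4 was above 3 of the 4 controls, and the log2 difference was -0.21 (95% interval -0.45 to 0.04, adjusted p = 0.465). Psma2 stood at 142, 149, 181 and 146 in controls and at 142, 135, 143 and 141 in knockouts, so that control 3 stood apart above a narrow band. Its difference was -0.13 (-0.34 to 0.07). Psma6, the highest of the ring, went from 218.1 ± 28.3 to 204.1 ± 15.7 and Psma5, the lowest, from 58.2 ± 9.51 to 52.9 ± 3.17 (mean ± SD, n = 4), with intervals of -0.34 to 0.16 and -0.39 to 0.14. Psma1 was nearly level at 120.33 ± 3.70 and 120.28 ± 7.30, with a difference of -0.0021 (-0.17 to 0.16), while Psma7 stood at -0.19 and Psma4 at -0.098.

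The constitutive beta genes had a median of -0.21, and all 7 had differences below 0. Without control 3 the median was -0.054, and Psmb5 turned to the other side of 0. Psmb2 stood at 145, 172, 223 and 159 scaled FPKM in controls 1 to 4 and at 131, 113, 151 and 129 in knockouts 1 to 4, with knockout 3 above control 1 alone. The difference was -0.40 (SE 0.14, 95% interval -0.72 to -0.07, adjusted p = 0.286). For Psmb3 the controls held 148, 169, 212 and 160 and the knockouts 146, 124, 151 and 147. Only knockout 3 reached above control 1, and the difference was -0.27 (-0.54 to 0.0093, adjusted p = 0.399). Psmb4 and Psmb1, which with Psmb2 and Psmb3 have no catalytic site, stood at -0.21 and -0.10.

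Psmb5, Psmb6 and Psmb7 carry the chymotrypsin-like, caspase-like and trypsin-like activities. Psmb5 varied most between libraries of all tested members, with 125, 80.6, 179 and 66.3 scaled FPKM in controls and 71.0, 85.5, 107 and 92.1 in knockouts. The highest and the lowest library were both controls, 2.70-fold apart, and the difference of -0.25 had an interval of -0.90 to 0.41. Without control 3 it was 0.0078. Psmb6 stood at 208, 233, 289 and 207 in controls and 228, 172, 237 and 199.8 in knockouts, with a difference of -0.16 (-0.48 to 0.16). Psmb7 stood at 417, 416, 505 and 402 in controls and 415, 360.1, 424 and 402 in knockouts, with a difference of -0.12 (-0.34 to 0.11). In both the groups overlapped and control 3 was the highest library.

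The inducible partners Psmb8, Psmb9 and Psmb10 were low and did not pass either, with a median of -0.23. Psmb8 stood at 16.5, 10.8, 12.4 and 14.4 scaled FPKM in controls and 13.0, 8.60, 10.9 and 11.9 in knockouts, and its difference was -0.26 (-0.60 to 0.08, adjusted p = 0.506). Psmb9 stood at 11.5, 6.06, 7.65 and 9.63 in controls and 8.63, 5.36, 6.21 and 8.68 in knockouts (-0.23, -0.69 to 0.23), and Psmb10 at 20.2, 16.7, 19.9 and 18.5 in controls and 17.2, 15.6, 16.0 and 18.3 in knockouts (-0.16, -0.35 to 0.04). All 3 were highest in control 1 and lowest in knockout 2. Both of these libraries held Xist. Within the 3 libraries that held it the median of the inducible genes was -0.65, against -0.058 in the 5 without it. The -0.65 rests on control 1 as the only control. The inducible gene made up 11.9% ± 4.65 of its pair with the constitutive gene in controls and 11.3% ± 2.95 in knockouts for Psmb8 with Psmb5, 3.70% ± 1.35 and 3.34% ± 0.706 for Psmb9 with Psmb6, and 4.17% ± 0.402 and 4.03% ± 0.302 for Psmb10 with Psmb7 (mean ± SD, n = 4). The groups overlapped in all 3 pairs.

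Of the 6 ATPase genes, whose products form the ring that unfolds substrates, 5 had differences below 0, with a median of -0.15 (-0.065 without control 3). Psmc6 stood at 124, 105, 115 and 114 scaled FPKM in controls and 84.4, 115, 87.4 and 121 in knockouts. Knockouts 1 and 3 lay below all controls while knockouts 2 and 4, which held Xist, lay within them. The difference was -0.18 (-0.48 to 0.12, adjusted p = 0.605), and -0.37 in the 5 libraries without Xist (adjusted p = 0.265). Psmc2 stood at 107, 128, 140.1 and 109.9 in controls and 122, 95.6, 117 and 99.0 in knockouts, where it is knockouts 2 and 4 that lay below all controls, with a difference of -0.16 (-0.43 to 0.11). Psmc3, the highest, went from 197.0 ± 29.0 to 176 ± 19.7 and Psmc4, the lowest, from 87.9 ± 12.4 to 79.4 ± 11.3. Psmc5 stood at -0.14 and Psmc1 at 0.030.

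Among the 11 non-ATPase genes 9 had differences below 0, with a median of -0.10 (-0.033 without control 3). Psmd12, a scaffold subunit of the lid, stood at 107.09, 117, 142 and 109 scaled FPKM in controls and at 106.67, 104, 101 and 102 in knockouts. The groups did not overlap, but control 1 and knockout 1 were nearly equal, and the difference was -0.19 (-0.41 to 0.03, adjusted p = 0.464). Psmd4, a ubiquitin receptor, stood at 125, 183, 212 and 141 in controls and 153, 114, 155 and 118 in knockouts, with a difference of -0.27 (-0.69 to 0.14, adjusted p = 0.563). Psmd6 and Psmd11, the highest and the lowest of this set, went from 168 ± 13.8 to 156 ± 14.4 and from 45.5 ± 2.83 to 42.6 ± 5.46. The base subunits Psmd1 and Psmd2 stood at -0.0057 and -0.082, and Psmd14, the deubiquitinase of the lid, at -0.057. Psmd3 and Psmd8 stood at -0.14 and -0.12, Psmd7 at 0.0015 and Psmd13 at 0.03.

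Psmd5, Psmd9 and Psmd10 are chaperones that help to assemble the 19S base. Psmd9 stood at 10.6, 12.4, 10.4 and 11.1 scaled FPKM in controls and 8.65, 8.99, 8.63 and 10.5 in knockouts. Knockouts 1, 2 and 3 lay below every control and knockout 4 lay among them, and the difference was -0.25 (SE 0.088, 95% interval -0.45 to -0.05, adjusted p = 0.268). Psmd10 went from 8.88 ± 0.690 to 8.34 ± 0.867 and Psmd5 from 11.6 ± 1.07 to 11.8 ± 2.37, with intervals of -0.29 to 0.12 and -0.30 to 0.32. Without control 3 the median of the 3 was -0.13.

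The 2 lowest differences of the activators were those of Psme1 and Psme4. Psme1 encodes the alpha subunit of the PA28 activator, which interferon-gamma induces, and its locus in mm10 is chr14:55578494-55585254, which the files give for Emc9 too. It stood at 89.5, 80.8, 74.84 and 84.1 scaled FPKM in controls 1 to 4 and at 52.1, 44.3, 74.58 and 57.4 in knockouts 1 to 4. The groups were separate only by the small gap between control 3 and knockout 3. The difference was -0.54 (SE 0.15, 95% interval -0.88 to -0.21, adjusted p = 0.173), and the knockout mean was 69.4% of the control mean. Without knockout 3 the adjusted p was 0.0803, and over all 20 alternative settings it lay between 0.0803 and 0.448. The difference was -0.35 in the 5 libraries without Xist and -0.81 in the 3 with it, where control 1 is the only control. In GENCODE M21 Emc9 overlaps Psme1 on the other strand, and reads of such partners cannot be separated where the kit does not mark strand.

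Psme2, the partner of Psme1 in PA28, stood at 50.6, 46.6, 48.4 and 55.1 scaled FPKM in controls and 48.5, 40.5, 47.6 and 48.3 in knockouts, with a difference of -0.12 (-0.32 to 0.08, adjusted p = 0.624). Psme4, the PA200 activator found mainly in nuclei, lies at chr11:30771775-30880361. It stood at 53.7, 60.1, 56.3 and 63.1 in controls and 36.3, 47.9, 52.9 and 46.6 in knockouts, with knockout 3 just below control 1. The difference was -0.35 (SE 0.12, 95% interval -0.62 to -0.08, adjusted p = 0.254), and the knockout mean was 78.8% of the control mean. Psme3, the nuclear PA28 gamma, was the steadiest member, at 25.02 ± 0.675 in controls and 26.1 ± 1.07 in knockouts, with a difference of 0.056 (-0.092 to 0.20). The inhibitor gene Psmf1 stood at 6.46 ± 0.448 and 6.41 ± 0.533, with a difference of -0.011 (-0.19 to 0.17).

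**Figure D3:**
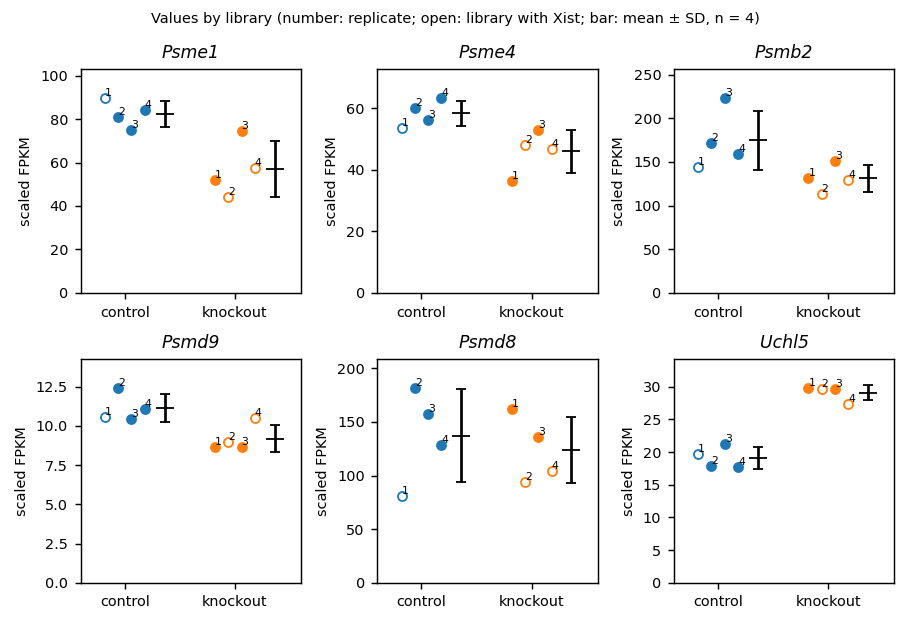
Scaled FPKM in each library for 5 proteasome genes and for Uchl5, a deubiquitinase bound to the proteasome. Numbers give the replicate, open points are libraries that held Xist, and bars are the mean ± SD of 4 animals. Psme1 and Psme4 are separate by small gaps, Psmb2 and Psmd9 overlap, Psmd8 is lowest in the open points of both genotypes, and Uchl5 is between 17.7 and 21.3 in controls and between 27.3 and 29.7 in knockouts.

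Differences between libraries of the same genotype were as large as the difference between genotypes. Relative to each gene's own mean over the 8 libraries, the median member stood at -0.05, 0.08, 0.20 and -0.01 in controls 1 to 4 and at 0.0081, -0.15, -0.0093 and -0.07 in knockouts 1 to 4 on the log2 scale. Control 3 was the highest library for 25 of the 42 members and knockout 2 the lowest for 20. The same median over all tested genes lay between -0.0079 and -0.00022 in every library, where the scaling places it near 0 by design. Control 3 also had the smallest scaling factor, 0.906. Without scaling the median difference of the members was -0.05, where that of all genes was 0.07, and 32 of 42 members lay below 0.

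**Figure D4:**
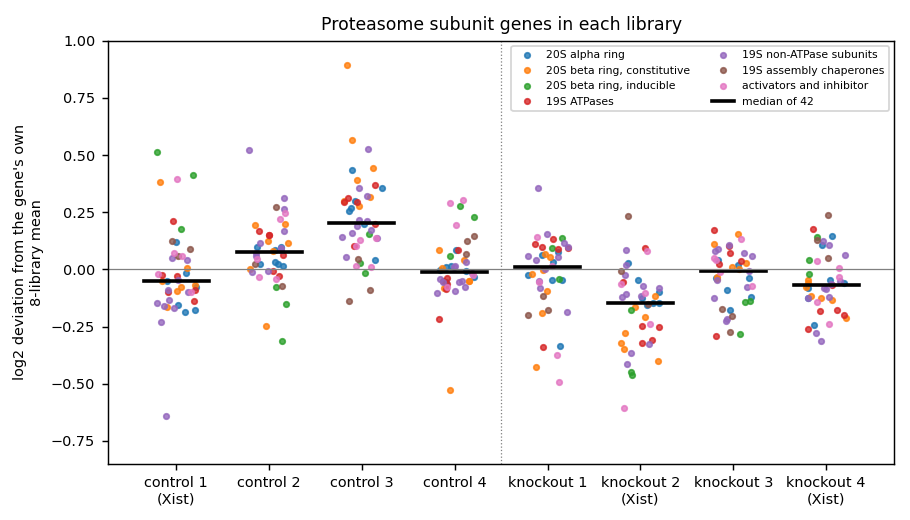
Log2 deviation of each of the 42 tested proteasome genes from its own mean over the 8 libraries (points, coloured by role), by library, with the median as a bar. The median is highest in control 3 at 0.20 and lowest in knockout 2 at -0.15.

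The 3 libraries with Xist had low levels of part of the complex. In 13 of 42 members (31.0%, against 9.38% of all genes tested) control 1, knockout 2 and knockout 4 were all below the other 5 libraries: Psma2, Psma4, Psma6, Psma7, Psmb1, Psmb4, Psmc2, Psmc4, Psmc5, Psmd3, Psmd4, Psmd8 and Psmd14. In 1 member, Psmd5, they were all above the other 5 (2.38%, against 11.4%). Psmd8, a lid subunit singled out after its values were seen, is 1 example: it stood at 80.6, 94.3 and 104 scaled FPKM in the 3 libraries with Xist and at 181, 158, 129, 162 and 136 in controls 2, 3 and 4 and knockouts 1 and 3. With presence of Xist as a covariate the median difference of the members was -0.0986, with 35 of 42 below 0 (51.8% of all genes). In the 5 libraries without Xist it was -0.090, with 37 of 42 below 0 (51.8% of all genes), and within the 3 that held it, 1 control against 2 knockouts, it was -0.056. No member passed with the covariate (2.01% of all genes did) or in the 5 libraries (0.0885% of all genes did). At an unadjusted p under 0.05 there were 6 members with the covariate (14.3%, against 18.6% of all genes) and 5 in the 5 libraries (11.9%, against 12.5%).

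Base composition moved with the difference between knockout libraries with and without Xist, and was not examined for control 1. Across the 42 members, the difference of knockouts 2 and 4 from knockouts 1 and 3 had a Pearson r of -0.46 with the GC content of the transcripts, which ran from 38.5% (Psme4) to 58.5% (Psmb10). Across 10695 tested genes r was -0.28. Genes within a library share its preparation and are not independent replicates. With each library corrected for trends against GC content, transcript length and level, the median of the members was -0.07, with 34 of 42 below 0 (49.2% of all genes), and 0 passed.

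Outside the named subunits, 1 gene of the proteasome passed. Uchl5, a deubiquitinase that docks on the 19S particle through the ubiquitin receptor Adrm1, rose in the knockout. It lies at chr1:143777278-143807466 and stood at 19.7, 17.8, 21.3 and 17.7 scaled FPKM in controls and 29.7, 29.6, 29.6 and 27.3 in knockouts. All 4 knockouts were above all 4 controls, and the knockout mean was 152% of that of controls. On the log2 scale this was 0.58 (SE 0.081, 95% interval 0.40 to 0.77, adjusted p = 0.0434). It lay between 0.55 and 0.63 when any 1 library was left out, but its adjusted p was then 0.0578 to 0.128, and it was 0.161 in the 5 libraries without Xist. Of the 20 alternative settings 8 kept it past the threshold, with adjusted p between 0.0142 and 0.161.

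The remaining 13 tested genes of that list of further subunits, assembly factors and associated enzymes did not pass, and the median of all 14 was -0.020, with 7 lower. Adrm1 stood at 46.9 ± 8.10 scaled FPKM in controls and 40.4 ± 7.06 in knockouts (-0.21, adjusted p = 0.618). Ublcp1, a nuclear proteasome phosphatase, stood at 8.77 ± 1.39 and 12.7 ± 1.92 (0.49, adjusted p = 0.172, and 0.0446 with Xist as a covariate). The small subunit Shfm1 stood at -0.21 and Pomp, a 20S assembly factor, at -0.088, and the assembly chaperones Psmg1, Psmg2, Psmg3 and Psmg4 between 0.0077 and 0.11. These genes were singled out after their values were seen.

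None of 13 genes for regulators passed, and 2 had an unadjusted p under 0.05, where 13.1% of all genes did. The median of the 13 was -0.061. Nfyc, a subunit of the factor that binds CCAAT boxes, stood at 18.9 ± 0.441 scaled FPKM in controls and 16.2 ± 0.856 in knockouts. Its groups did not overlap (-0.21, adjusted p = 0.233), as was so in the lower direction for 3.64% of all genes. Zfand5, a proteasome-binding protein of muscle atrophy, stood at 45.4 ± 5.14 and 38.5 ± 2.49 (-0.23, adjusted p = 0.373). Nfe2l1 stood at 171 ± 13.2 and 196 ± 13.9 (0.19, adjusted p = 0.403), opposite in sign to most subunit genes; it was singled out after its values were seen.

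None of 13 genes of ubiquitin supply, activation and shuttling passed either, and 1 had an unadjusted p under 0.05 (13.1% of all genes did). The median of this list was -0.0017.

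The interferon-gamma and antigen presentation list, the company of the inducible subunits, had a median of -0.14. Of its 14 tested genes 9 were lower, where 50.5% of all genes were. In limma 0 passed the test and 0 had an unadjusted p under 0.05, against 13.1% of all genes at that p. H2-D1, a class I heavy chain, stood at 107.3 ± 8.67 and 90.2 ± 17.8 (-0.27, adjusted p = 0.492) and Tap2, a subunit of the peptide transporter, at 9.05 ± 0.962 and 7.66 ± 1.35 (-0.22, adjusted p = 0.503). In the 5 libraries without Xist they stood at -0.036 and -0.046, and within the 3 that held it, where control 1 is the only control, at -0.59 and -0.51. Leukocyte markers, which go with the inducible subunits in many tissues, summed to between 29.7 and 52.5 scaled FPKM in controls and between 26.5 and 50.3 in knockouts, with 6 of 10 under a mean of 1, and 5 of 6 tested ones were higher (median 0.097). Most of this sum was Lyz2, at 30.2 ± 8.76 in controls and 30.3 ± 9.04 in knockouts. Endothelial markers summed to between 298 and 340.5 in controls and between 248 and 332 in knockouts, with 8 of 8 lower, and smooth muscle markers to between 254 and 377 and between 238 and 286, with 8 of 8 lower. Fibro-adipogenic markers summed to between 379 and 662 in controls and between 343 and 502 in knockouts, with 8 of 8 lower. Adipocyte markers summed to between 888 and 1118 and between 660 and 1021, with 2 of 2 tested ones lower (median -0.42). Blood markers summed to between 172 and 296 and between 191 and 416, with 3 of 3 tested ones higher (median 0.028). The T cell marker Cd3e stood apart from the other leukocyte markers, at 1.20 ± 0.209 in controls and 5.01 ± 2.51 in knockouts with no overlap (1.36, adjusted p = 0.0869). It passed with Xist as a covariate (0.0304), without knockout 2 (0.0283) and without knockouts 2 and 4 (0.0279), and in none of its other 16 alternatives. The haemoglobin gene Hbb-bs did not pass the filter on low values over all 8 libraries. It was at most 0.0066 scaled FPKM in controls and knockout 4 and stood at 10.57, 5.96 and 6.80 in knockouts 1 to 3. It passed without knockout 4, without knockouts 2 and 4 and in the 5 libraries without Xist. All of these fits leave out knockout 4, and Hbb-bs entered them only through knockouts where it was high. Its passing there was thus close to fixed in advance and is no evidence of a difference. No marker tested over all 8 libraries passed there, and the part of these cells in the levels of the proteasome genes was not tested.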

How the data were processed

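Trizol was used to extract RNA of 8 muscles, and TruSeq RNA v2 to prepare the libraries, per the labels' protocols. The deposited values are FPKM per gene, made by the authors with STAR and Cufflinks on mm10, per the submitters' processing notes; versions and annotation are not given in the sources used here. No counts are given, so no count model was run, and precision per gene from depth is unknown. Scaling used median-of-ratios factors from the 10171 genes that reached 1 FPKM in all libraries. The 23 genes whose status was not OK throughout, none of them a member, were left out. The rest were tested as log2(scaled FPKM + 1) with limma 3.58.1 (lmFit, eBayes with trend) in R 4.3.3, with Benjamini-Hochberg adjustment, checked on simulated data. Summaries were made in Python 3.11.15 (pandas 2.3.3, scipy 1.17.1).

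The animals are separate per the labels. Of the members, 12 overlap another listed gene by GENCODE M21 spans and 6 by the loci in the files, and near-identical pseudogenes exist for several subunits, so reads could be shared between them. Coordinates are the files' own in mm10, with the start counted from 1.

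Members and gene lists were chosen with earlier results of these data known. In each role the library values are given for the 2 members with the smallest p, and levels for the highest and the lowest; the catalytic pairs are always given, and each further list gives called genes or else the 2 with the smallest p. Some genes this rule names are not reported here. Alternatives were no filter, a filter on a mean of 5 scaled FPKM, 0.1 as pseudocount, no scaling, quantile normalization, each library left out, array weights, robust eBayes, a block on replicate number, a covariate for Xist (1 FPKM or more), only the 5 libraries that lacked it, knockouts 2 and 4 left out, and loess trends (span 0.5) removed. The contrast within the 3 libraries with Xist was added after the data were examined and has no test.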

Additional observations from a re-analysis of the deposited data

Results flagged for a closer look

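In groups of 4 libraries, the highest or lowest value was marked where its gap to the next filled most of the group's range (Dixon's 95% critical value). Of 88 groups, 3 were marked, and chance alone marks about 1 in 20. Psmb7 stood at 504.7 scaled FPKM in control 3, where the other controls lay between 401.7 and 417.2. Psme2 stood at 40.51 in knockout 2, where the next knockout was at 47.63 and the highest at 48.52. Uchl5 stood at 27.32 in knockout 4, where the others lay between 29.57 and 29.73, still above every control.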

How the results depend on the processing

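In limma no proteasome gene passed in the main comparison or in any of the 20 alternatives, where between 2 and 6 had an unadjusted p under 0.05 (4.76% to 14.3% of the members, against 10.4% to 18.6% of all genes). The median difference of the tested members, -0.14 in the main fit, stayed below 0 in all of them. It ran from -0.17 without control 1 to -0.05 without scaling. It was -0.06 without control 3, and -0.07 with quantile normalization, with trends removed and without knockouts 2 and 4. Each move was less than the spread of the library medians within groups (SD 0.0941). That spread is large beside -0.14, so a move within it does not mean that the size held. The count of genes called over all genes also varied, against 40 in the main fit. It was 8 without a filter, 15 at a mean of at least 5 scaled FPKM, 103 with array weights and 223 with Xist as a covariate. It was 10 in the 5 libraries without Xist, 19 without knockouts 2 and 4, 66 with trends removed, and 2 to 25 when any 1 library was left out. Without scaling 36 were higher and 13 lower. With the replicate number as a block 0 genes passed (1314 at an unadjusted p under 0.05, 6 of them members). Deviations from the group mean had r of -0.43, -0.19, 0.35 and 0.19 between same-numbered libraries 1 to 4. Controls 1 and 2 correlated best with a knockout of another number, and controls 3 and 4 with the knockout of their own. Among the 26 members that the rule above names, the sign turned for 6. Psmb5, Psmb6 and Psmc4 were among them, with differences beyond the median. Psmd5 turned to -0.075 with Xist as a covariate, -0.18 without Xist and -0.22 without knockouts 2 and 4. With 1 library left out it ran from -0.068 to 0.10. Psmf1 turned to 0.066 unscaled, 0.016 with the covariate and 0.031 without knockouts 2 and 4. With 1 left out it ran from -0.061 to 0.021, and Psmb5 from -0.47 to 0.0078. Psma6 turned to 0.0020 with quantile normalization. Without knockouts 2 and 4 Psma6, Psmb6 and Psmc4 stood at 0.0031, 0.0042 and 0.026. Other members turned too, for example Psmd8 to 0.067 with the covariate and 0.17 without knockouts 2 and 4. Psmc5 and Psmd3 stood at 0.081 and 0.017 in that last fit, and Psma1 at 0.011 without control 3. The cause was not tested. Carm1 kept its direction in all alternatives, with adjusted p between 0.0166 and 0.189. Read depth is not given, so what it limits for low members is unknown.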
